A study of Mus musculus with 8 samples.

Results

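Cells find foreign or misplaced nucleic acid with a small set of sensors, and a small set of transcription factors turns that signal, and the interferon released after it, into gene expression. A group of 9 such genes was followed in RNA sequencing of mouse microvascular cells with and without the receptor LRP1. They were 5 sensors or sensor proteins (Ddx58, Ifih1, Dhx58, Tmem173, Zbp1) and 4 transcription factors (Irf1, Irf7, Irf9, Stat2), chosen by name out of 22520 genes in the deposited table. All 9 passed the filter on low values. The question of the comparison was which of these genes differ in cells that lack LRP1, a large cell-surface receptor that takes up many ligands and also signals.

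There were 4 LRP1 knockout (LRP1 KO) and 4 wild-type (WT) libraries from C57BL/6 mice at postnatal day 14. Per the study's methods, LRP1 KO mice were LRP1 f/f; Cdh5-CreER+/- and WT littermates were LRP1 f/f; Cdh5-CreER-/-, so that both groups carried the floxed Lrp1 alleles and only the LRP1 KO group carried the recombinase, an inducible Cre under the promoter of the endothelial gene Cdh5. Cre itself and the loss of LRP1 therefore cannot be told apart in this design. Antibody-coated beads that bind PECAM-1 had been used to pull the cells out, and the labels call each library a mix from heart, liver and lung. The labels do not say that libraries came from separate mice, so p-values measure the spread between these libraries, which may be technical.

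RIG-I (encoded by Ddx58) and MDA5 (Ifih1) are helicases that bind viral or misplaced double-stranded RNA in the cytoplasm and signal through the mitochondrial adaptor MAVS. LGP2 (Dhx58) belongs to the same family, lacks the signaling domain and tunes the other two. STING (Tmem173) answers to cyclic dinucleotides made when DNA lies in the cytoplasm. ZBP1 binds left-handed (Z-form) nucleic acid and can pass the signal to the kinase RIPK3 and its substrate MLKL. Downstream, IRF7 drives interferon genes. STAT2 and IRF9 are subunits of the complex ISGF3, which binds the interferon-stimulated response element (ISRE) after a type I interferon signal. IRF1 is classically induced by interferon gamma through the gamma-activated site (GAS). Most of these genes are themselves interferon-induced in many cell types, endothelium included.

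The sequences below are shown because ISRE and GAS are the letters that these factors read, and 4 of the promoter windows hold them. RefSeq promoter windows on GRCm38.p6, each 300 bases with 250 before and 50 after the start, were given for 6 of the 9 genes, 8 windows in all because Irf1 and Irf9 each had a pair. The ISRE core was searched as GAAANNGAAA and the GAS core as TTCNNNGAA, on both strands. Each line gives 30 bases in the gene's direction, 5′ to 3′, with the match in capitals.
Ifih1, chr2:62646206-62646235, minus strand, ISRE core: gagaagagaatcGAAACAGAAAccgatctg
Ddx58, chr4:40239804-40239833, minus strand, ISRE core on the other strand: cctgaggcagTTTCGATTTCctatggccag
Stat2, chr10:128270266-128270295, plus strand, ISRE core on the other strand: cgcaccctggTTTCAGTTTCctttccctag
Irf1, chr11:53769914-53769943, plus strand, GAS core: acagcctgatTTCCCCGAAatgatgaggcc

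An ISRE core thus lay in 3 of the 8 windows (3 of the 6 genes), and in 1131 of all 32851 windows (3.44%). It began 33 bases after the start in Ifih1, 3 bases after the start in Ddx58 and at -222 in Stat2, each position being that of the first printed capital. A GAS core lay in 1 of the 8 windows, at -90 in 1 of the pair of Irf1, and in 2726 of all windows (8.30%). The windows of Irf7 and Irf9 held neither run of letters. A match of letters is a description of the window and no evidence that a factor was bound.

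The libraries were first checked against their labels. Lrp1 stood at 113, 140, 103 and 124 FPKM in WT (a fragment count scaled by transcript length and library size) against 3.45, 5.20, 2.79 and 7.72 FPKM in LRP1 KO 1 to 4. The values had been quantile normalized, with sums of 503571 to 504112 in every library, so depth is unknown and precision is judged from the spread between libraries alone. By its markers the endothelial label was met in part. Pecam1, the gene of the bead antigen, was at 6.80 to 8.76 FPKM in the WT libraries against 36.3, 18.5, 26.2 and 6.72 FPKM in LRP1 KO 1 to 4, while the fibroblast collagen gene Col1a2 was at 726 to 973 and 576 to 955 FPKM (both genes were picked after their values were seen). The mean of Lrp1 in LRP1 KO was 3.99% of that in WT. Lrp1 was low in LRP1 KO 4 too, where Pecam1 was not above the WT range. Which cell types had lost Lrp1 was not tested, so the values are not those of endothelial cells alone. On a principal component that took 60.8% of the variance, LRP1 KO 4 lay at 0.102 between the WT libraries (-24.1 to -12.9) and the other LRP1 KO libraries (17.2 to 27.3).

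Of the 9 genes, 7 were higher in LRP1 KO at a limma adjusted p under 0.05 and none was lower. Tmem173 and Irf1, the 2 that missed the threshold, had lower means and an unadjusted p under 0.05. Over all 11389 genes tested, 6.27% were called higher and 7.31% lower. Only Zbp1 and Irf7 also rose by at least 2-fold on the log2 scale, against 1.12% of all tested genes. For the same 7 genes every LRP1 KO library lay above every WT library, against 8.84% of all tested genes, and for none of the 9 did every LRP1 KO library lie below, against 10.7%. The median log2 fold change of the 9 genes was 0.61, and that of all tested genes was -0.01. In such bulk RNA, more cells of a type that expresses a gene and more RNA of that gene per cell cannot be told apart.

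**Figure D1:**
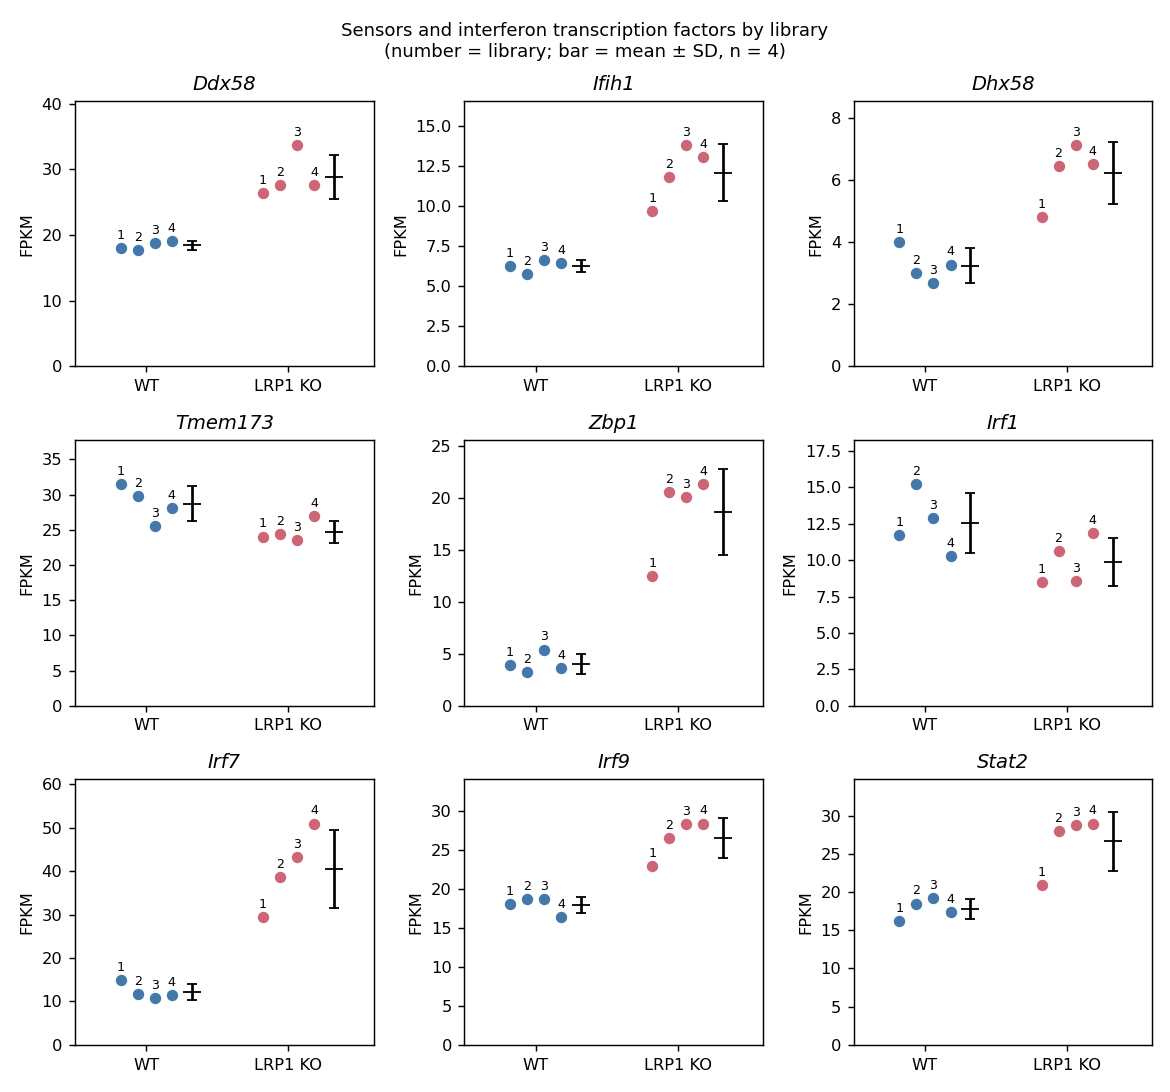
FPKM of each of the 9 genes (vertical axes, from 0) in the 4 WT and 4 LRP1 KO libraries, numbered by library, with the mean ± SD beside each group. The 4 LRP1 KO points lie above the 4 WT points in every panel except those of Tmem173 and Irf1, and the ratio of the lowest LRP1 KO to the highest WT library is widest for Zbp1 (2.31) and Irf7 (1.98).

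Among the sensors, Zbp1 moved most. Zbp1 (ENSMUSG00000027514, chromosome 2, 173206612 to 173218923, minus strand, GRCm38) was at 3.95, 3.21, 5.398 and 3.58 FPKM in the WT libraries 1 to 4 against 12.5, 20.6, 20.0 and 21.3 FPKM in LRP1 KO 1 to 4. The groups did not overlap, and the lowest LRP1 KO library was 2.31 times the highest WT library. LRP1 KO 1 stood apart below the other 3. The mean rose from 4.03 ± 0.959 to 18.6 ± 4.11 FPKM (SD, n = 4), a ratio of 4.61. On the log2(FPKM + 1) scale the change was 1.95 (SE 0.18, limma adjusted p = 0.000593). Ranked among all tested genes within each library, Zbp1 had a mean percentile of 21.4 over the WT libraries and of 63.1 over the LRP1 KO libraries.

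The 3 RIG-I-like helicases rose together by smaller amounts. Ifih1 (ENSMUSG00000026896, chromosome 2, 62595798 to 62646255, minus strand), the gene of MDA5, was at 6.28, 5.77, 6.63 and 6.44 FPKM in the WT libraries against 9.70, 11.8, 13.8 and 13.0 FPKM in LRP1 KO. WT libraries lay close together and all 4 LRP1 KO libraries were above them. Its mean rose from 6.28 ± 0.370 to 12.1 ± 1.79 FPKM, and the log2 fold change was 0.84 (SE 0.10, limma adjusted p = 0.00210).

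Ddx58 (ENSMUSG00000040296, chromosome 4, 40203773 to 40239828, minus strand), which encodes RIG-I, was the most abundant of the 3 helicase genes per length. It was at 17.99, 17.7, 18.8 and 19.1 FPKM in the WT libraries against 26.4, 27.6, 33.7 and 27.6 FPKM in LRP1 KO. LRP1 KO 3 stood above the other 3, and all 4 lay above the WT range. The group mean rose from 18.4 ± 0.672 to 28.8 ± 3.31 FPKM, with a log2 fold change of 0.61 (SE 0.08, limma adjusted p = 0.00271).

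Dhx58 (ENSMUSG00000017830, chromosome 11, 100694884 to 100704271, minus strand), the gene of the regulatory helicase LGP2, had the lowest mean of the 9 genes in both groups. It was at 3.99, 2.99, 2.68 and 3.28 FPKM in the WT libraries against 4.82, 6.45, 7.13 and 6.52 FPKM in LRP1 KO. The groups were separate, with the gap between WT 1 and LRP1 KO 1 the narrowest. Its mean rose from 3.24 ± 0.560 to 6.23 ± 0.987 FPKM, and the log2 fold change was 0.77 (SE 0.13, limma adjusted p = 0.00803). As ratios of means, Ifih1 and Dhx58 both came to 1.92 and Ddx58 to 1.56. The gene overlaps Dhx58os on the opposite strand over 141 bases of its exons (4.31%), and the labels do not say whether strand was kept.

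The DNA-side adaptor did not follow them. Tmem173 (ENSMUSG00000024349), which encodes STING, was at 31.5, 29.8, 25.5 and 28.1 FPKM in the WT libraries against 24.04, 24.4, 23.5 and 27.0 FPKM in LRP1 KO. The groups overlapped, since LRP1 KO 4 lay above WT 3. The means were 28.7 ± 2.53 and 24.7 ± 1.57 FPKM, so that LRP1 KO held 86.2% of the WT level, and the log2 fold change of -0.21 (SE 0.07) missed the threshold (limma adjusted p = 0.0925; exact two-sided permutation p = 0.0571). Without LRP1 KO 4 the log2 fold change was -0.25 and passed it (limma adjusted p = 0.0412; 0.0412 to 0.899 over all alternatives).

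Among the transcription factors, Irf7 had the highest ratio between groups. Irf7 (ENSMUSG00000025498, chromosome 7, 141262706 to 141266481, minus strand), whose product drives type I interferon genes, was at 14.9, 11.6, 10.9 and 11.6 FPKM in the WT libraries against 29.5, 38.6, 43.2 and 50.9 FPKM in LRP1 KO. The lowest LRP1 KO library was 1.98 times the highest WT library. The group mean rose from 12.2 ± 1.81 to 40.6 ± 8.96 FPKM, a ratio of 3.31, and the log2 fold change was 1.63 (SE 0.16, limma adjusted p = 0.000628). Its percentile among all tested genes, taken in each library and averaged by group, was 51.2 in WT and 81.4 in LRP1 KO. Irf7 shares 45 exonic bases (1.19%) with Phrf1 on the opposite strand, and Phrf1 was at 19.8 to 26.3 FPKM in the WT libraries against 17.9 to 21.2 FPKM in LRP1 KO.

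The ISGF3 partners Irf9 and Stat2 rose by similar ratios. Irf9 (ENSMUSG00000002325, chromosome 14, 55603571 to 55610030, plus strand), the DNA-binding subunit, was at 18.03, 18.7, 18.7 and 16.4 FPKM in the WT libraries against 22.9, 26.6, 28.4 and 28.4 FPKM in LRP1 KO. All 4 LRP1 KO libraries were above the WT range. The mean rose from 17.96 ± 1.07 to 26.6 ± 2.57 FPKM (ratio 1.48), with a log2 fold change of 0.54 (SE 0.08, limma adjusted p = 0.00493). Irf9 shares 123 exonic bases (2.28%) with its same-strand neighbour Rnf31, which was at 6.41 to 9.26 FPKM in the WT libraries against 7.83 to 9.16 FPKM in LRP1 KO.

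Stat2 (ENSMUSG00000040033, chromosome 10, 128270559 to 128292849, plus strand), the subunit that carries the activation domain, was at 16.2, 18.5, 19.2 and 17.3 FPKM in the WT libraries against 20.9, 28.04, 28.7 and 29.0 FPKM in LRP1 KO. The groups did not overlap, but LRP1 KO 1 was only 1.09 times the highest WT library and stood apart from the other 3. The mean rose from 17.8 ± 1.33 to 26.7 ± 3.87 FPKM (ratio 1.496), with a log2 fold change of 0.55 (SE 0.11, limma adjusted p = 0.0148). Without LRP1 KO 2 the log2 fold change was 0.52 and the call was lost (limma adjusted p = 0.0531; 0.00232 to 0.808 over all alternatives). Stat2 lies 649411 bases from Lrp1 on the same chromosome, and both groups carried the floxed Lrp1 alleles.

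Irf1 (ENSMUSG00000018899, chromosome 11, 53770014 to 53778374, plus strand), the GAS-bearing factor gene, was at 11.8, 15.2, 12.9 and 10.3 FPKM in the WT libraries against 8.50, 10.6, 8.55 and 11.9 FPKM in LRP1 KO. The groups overlapped. The means were 12.5 ± 2.07 and 9.89 ± 1.66 FPKM, and the log2 fold change of -0.31 (SE 0.13) missed the threshold (limma adjusted p = 0.133; exact two-sided permutation p = 0.143). It ran from -0.087 with the endothelial to -0.89 with the macrophage and -1.25 with the leukocyte covariate, and the adjusted p over all alternatives ran from 0.0503 to 0.910. Of the 6 genes with promoter windows, all but Irf1 rose, Ifih1, Ddx58 and Stat2 with an ISRE core and Irf7 and Irf9 with neither core. Whether a core went with a change was not tested. Irf1 shares 135 exonic bases (3.40%) with Gm17334 on the opposite strand.

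The order of the levels per length differed between the groups. In WT, Tmem173 had the highest mean, followed by Ddx58, Irf9 and Stat2, whose ranges overlapped, then by Irf1 and Irf7, whose ranges overlapped as well, and last by Ifih1, Zbp1 and Dhx58, of which the last pair overlapped. In LRP1 KO, Irf7 had the highest mean, with a range that overlapped that of Ddx58. Stat2, Irf9 and Tmem173 came next, and Zbp1 followed with a range that overlapped that of Ifih1. Zbp1 thus stood with Dhx58 at the bottom of the order in WT and clear of it in LRP1 KO.

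The size of the rise varied between LRP1 KO libraries, and all 7 genes that rose were lowest of the group in LRP1 KO 1. LRP1 KO 1 was lowest in 8 of the 9 genes, Tmem173 being the exception. In Irf1 it was close to LRP1 KO 3 (8.50 and 8.55 FPKM). The highest library differed between the genes that rose. It was LRP1 KO 3 in Ddx58, Ifih1 and Dhx58 and LRP1 KO 4 in Zbp1, Irf7, Irf9 and Stat2. LRP1 KO 4 was also highest in Tmem173 and Irf1, which did not rise. Relative to the WT mean, the 7 genes that rose had a median ratio of 1.49 in LRP1 KO 1, 1.88 in LRP1 KO 2, 2.20 in LRP1 KO 3 and 2.01 in LRP1 KO 4. The lowest single ratio was 1.17 and the highest 5.27.

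Markers of other cell types moved with the group as well. The summed level of 17 macrophage markers was 55.7 to 96.5 FPKM in the WT libraries against 366, 546, 223 and 493 FPKM in LRP1 KO 1 to 4, and 7 of its 9 tested genes were called higher, 1 of which (Mrc1) was under 1 FPKM in all WT libraries and so passed the filter through LRP1 KO alone. The summed level of 14 general leukocyte markers was 9.82 to 16.9 FPKM in the WT libraries against 78.5, 111, 55.8 and 89.1 FPKM in LRP1 KO, with 9 of 10 tested genes higher, 3 of which (Cd52, Hcls1, Cybb) passed the filter through LRP1 KO alone. The 20 endothelial markers summed to 204 to 220 FPKM in WT and to 747, 459, 543 and 211 FPKM in LRP1 KO, with 2 of 18 tested genes called higher. LRP1 KO 3, which had the lowest macrophage and leukocyte sums of its group, had the highest Ddx58, Ifih1 and Dhx58. LRP1 KO 4 was highest for the other 6 genes, of which Tmem173 and Irf1 had lower means in LRP1 KO than in WT. Its endothelial sum was at 0.991 of the WT mean, its macrophage sum at 6.33 and its leukocyte sum at 6.47. How the marker sums relate to the 9 genes by library was not tested.

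Lymphocyte and plasmacytoid dendritic cell markers were at or near 0, and fibroblast markers were abundant in both groups. Of 12 lymphocyte and natural killer cell markers none passed the filter, the highest value was 0.268 FPKM, and 6 were listed at 0 in all libraries, among them Cd3e, Cd3g, Cd8a, Ncr1 and Gzma. The 6 markers of plasmacytoid dendritic cells, the classical high producers of type I interferon, summed to 1.35 to 1.70 FPKM in the WT libraries against 1.39 to 2.21 FPKM in LRP1 KO, nearly all of it from Cox6a2, with the defining Siglech at 0 throughout. The 10 neutrophil markers summed to 0.584 to 1.68 FPKM and 1.41 to 4.06 FPKM, with 1 tested and called higher (S100a8, at 1 FPKM or more in only 1 WT library), and S100a9, Ly6g and Retnlg at 0. The 12 fibroblast markers summed to 2558 to 3780 FPKM in the WT libraries against 2205 to 3432 FPKM in LRP1 KO, with 1 higher and 2 lower. Of 9 tested mural cell markers, 5 were higher and 1 was lower, and the list of 12 summed to 643 to 809 FPKM in the WT libraries against 1010 to 1621 FPKM in LRP1 KO.

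**Figure D2:**
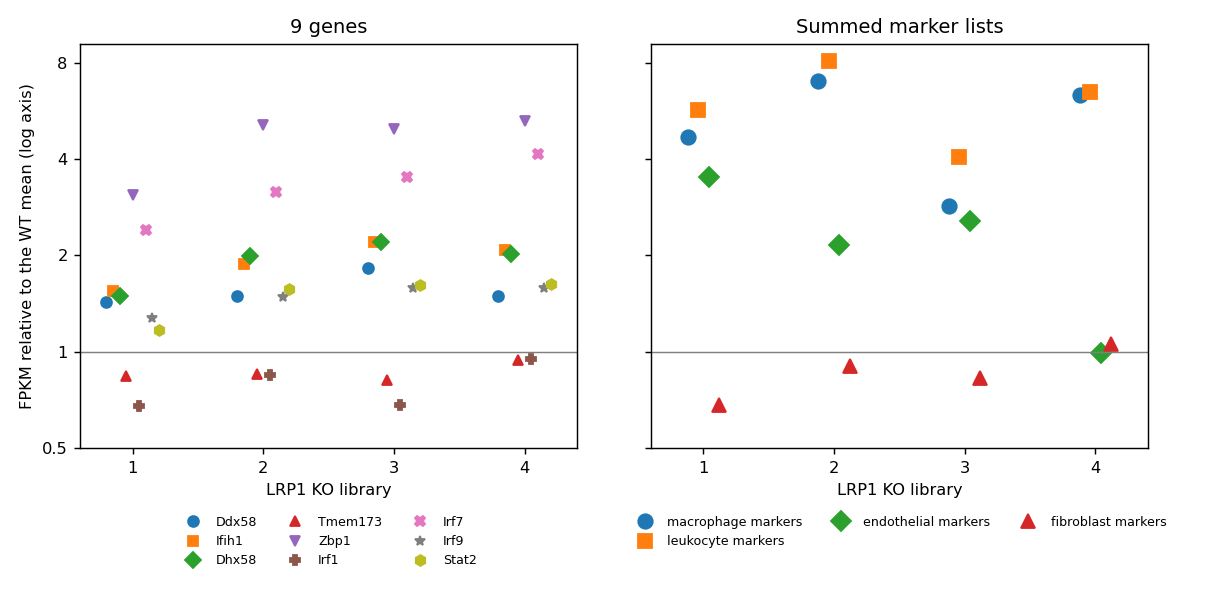
FPKM in each LRP1 KO library divided by the WT mean, on a log axis, for the 9 genes (left) and for the summed macrophage, leukocyte, endothelial and fibroblast markers (right). LRP1 KO 3 has the lowest macrophage and leukocyte points of the group. LRP1 KO 4 has an endothelial point at 0.991, a macrophage point at 6.33 and a leukocyte point at 6.47.

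The comparison was repeated with the mean log2 level of a marker list as a covariate. With the endothelial markers, 7 of the 9 genes were called higher, as without them, and the median log2 fold change was 0.73. The whole table did change in that fit. Its median SE was 0.117, against 0.0880 without the covariate, and 1202 genes had an unadjusted limma p under 0.05, against 3838. With the macrophage markers, whose score did not overlap between groups (2.09 to 2.698 in WT, 3.52 to 4.71 in LRP1 KO), none of the 9 was called in either direction at a limma adjusted p under 0.05. At an unadjusted p under 0.05, 6 were higher and 1 was lower. The median SE over all tested genes rose from 0.0880 to 0.221 in this fit, and only 3 genes of the whole table were called higher and 7 lower. The estimates of the 7 genes were all above 0, from 0.30 (SE 0.27) for Stat2 to 1.67 (SE 0.41) for Irf7, with 1.57 (SE 0.45) for Zbp1 and 0.87 (SE 0.19) for Ddx58. With the leukocyte markers 4 were higher and 1 was lower at an unadjusted p under 0.05, and no gene of the whole table was called at an adjusted p. How much of each rise came with these cells was not tested beyond these fits.

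**Figure D3:**
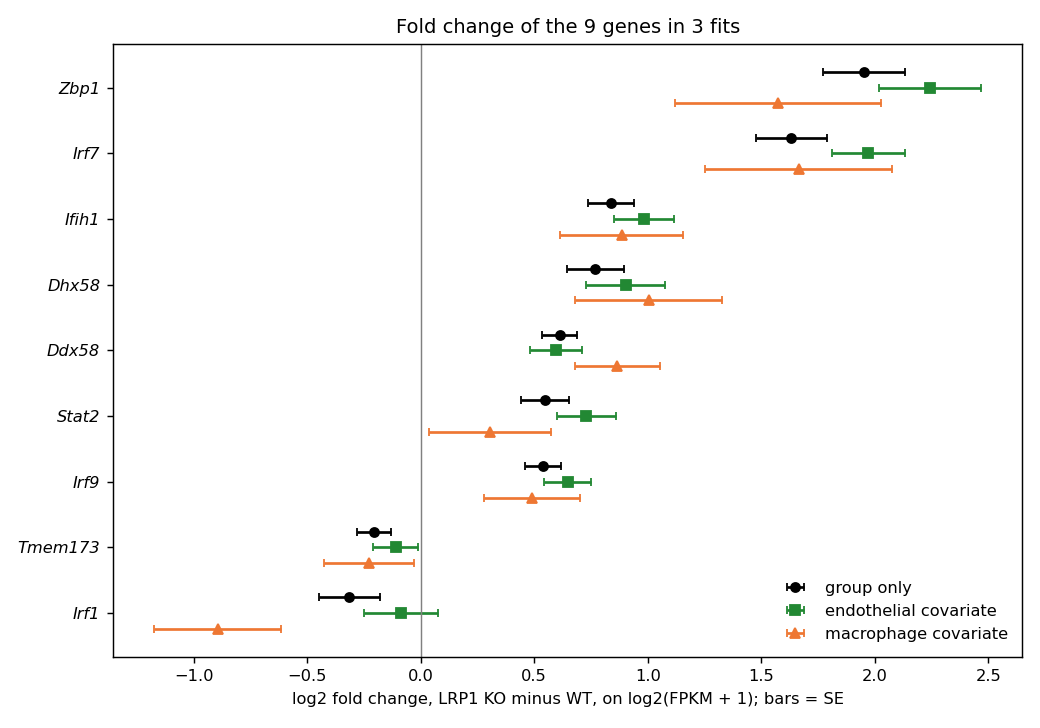
Log2 fold change on log2(FPKM + 1), LRP1 KO minus WT (horizontal axis), of the 9 genes in fits with the group alone, with the endothelial covariate and with the macrophage covariate. Points are estimates and bars are SE, which are wider with the macrophage covariate for all 9 genes. The 7 genes that rose keep estimates above 0 in all 3 fits.

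The rest of the pathway was followed by role in lists written out from general knowledge. Of 15 tested genes among 21 other nucleic acid sensors, 6 were higher, 2 were lower and 7 did not pass the test, with a median log2 fold change of 0.10. Eif2ak2, which encodes the double-stranded RNA-activated kinase PKR, was at 12.7, 10.9, 14.6 and 15.1 FPKM in the WT libraries against 20.3, 22.2, 25.5 and 18.9 FPKM in LRP1 KO, with a log2 fold change of 0.67 (SE 0.12, limma adjusted p = 0.0100). Zc3hav1, the CpG-RNA-binding antiviral protein ZAP, rose by 0.39 (adjusted p = 0.0193), and Tlr3, the endosomal receptor for double-stranded RNA, by 0.37 (adjusted p = 0.0368). The other 3 were Ifi203, Mnda and Mndal, neighbouring members of the DNA-binding PYHIN family, with 0.84, 0.53 and 0.82 (adjusted p of 0.0176, 0.0357 and 0.0148). They are close paralogs, and how the authors' counting split reads between them is uncertain. With the macrophage covariate Ifi203 came to 0.39, Mnda to 0.036 and Mndal to 0.60, and none of the 3 was called. Ifi204, the most abundant member of the family in the list, was at 57.1 ± 2.73 and 62.5 ± 15.5 FPKM (0.10, adjusted p = 0.690), with a sign that turned without LRP1 KO 4 (-0.044), and was named after its values were seen. Xrcc5, the Ku80 subunit of the DNA end-binding complex, fell by 0.36 and Zcchc3, a cofactor of DNA and RNA sensing, by 0.33 (adjusted p of 0.0321 and 0.0385). Lrrfip1 had the highest level of the list (95.4 ± 5.48 FPKM in WT, 88.2 ± 4.62 FPKM in LRP1 KO) and a log2 fold change of -0.11 (adjusted p = 0.227). When 1 library was left out, the calls of Tlr3, Mnda, Xrcc5 and Zcchc3 were each lost in 6 of 8 fits, those of Zc3hav1 and Ifi203 in 3 and that of Mndal in 2.

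Downstream of the sensors, 2 of 16 adaptors and kinases were higher and none was lower (limma, 4 and 0 at an unadjusted p under 0.05), with a median of 0.05. Trim25, the ubiquitin ligase that acts with RIG-I, rose from 9.09 ± 0.478 to 13.1 ± 0.600 FPKM (log2 fold change 0.48, SE 0.06, adjusted p = 0.0027). Mlkl, the last step of the ZBP1 and RIPK3 route, rose from 11.4 ± 1.56 to 17.8 ± 1.72 FPKM (0.60, SE 0.10, adjusted p = 0.0095). Ripk3 between them stood at 33.9 ± 3.94 and 36.6 ± 1.83 FPKM (0.11, adjusted p = 0.367), and the groups overlapped. Mavs, the adaptor that RIG-I and MDA5 share, was at 12.7 ± 0.288 and 12.5 ± 0.719 FPKM, with a log2 fold change of -0.03 (SE 0.06, adjusted p = 0.727), a sign that turned without LRP1 KO 4 (0.0044). Mavs was singled out by its role after its values were known.

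Enzymes that degrade or edit nucleic acid moved both ways. Of 8 tested, 2 were higher, 2 were lower and 4 did not pass, with a median of -0.04. Adar, which edits double-stranded RNA, was at 11.2 to 12.9 FPKM in the WT libraries against 16.7 to 19.4 FPKM in LRP1 KO (0.53, SE 0.07, adjusted p = 0.0027), and Samhd1, a dNTP hydrolase, rose by 0.23 (adjusted p = 0.0288). Dnase2a, the lysosomal DNase, fell by 0.42 (adjusted p = 0.0232). When 1 library was left out, the call of Samhd1 was lost in 6 of 8 fits and that of Dnase2a in 4.

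Other factors of the IRF family were not called. None of 3 tested IRF genes passed the limma test, and none had an unadjusted p under 0.05, and their median was -0.17. Irf3, which acts with IRF7 below the sensors, had means of 45.8 ± 4.22 FPKM in WT against 40.6 ± 2.49 FPKM in LRP1 KO (-0.17, SE 0.08, adjusted p = 0.158), with overlapping groups. Stat3, the most abundant of the other STAT genes per length, was at 76.7 ± 5.89 and 65.3 ± 5.93 FPKM (-0.23, adjusted p = 0.0763). Without LRP1 KO 4 it was -0.29 and passed the threshold (limma adjusted p = 0.0143; 0.0143 to 0.804 over all alternatives).

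With all 8 libraries, ligands and receptors gave no call. Of 17 interferon genes in the table none passed the filter, 12 were listed at 0 in all 8 libraries, and the highest value was 0.454 FPKM, of Ifnz in WT 3. Ifnb1 was at 0.103 FPKM in LRP1 KO 3 and at 0 in the other 7 libraries. None of 8 tested receptor and Janus kinase genes was called by limma in either direction, with a median of -0.01, and 2 were lower at an unadjusted p under 0.05. Ifnar2, a subunit of the type I interferon receptor and the highest of the list, had means of 76.2 ± 9.48 FPKM in WT against 59.5 ± 10.2 FPKM in LRP1 KO, with overlapping groups (-0.36, SE 0.12, adjusted p = 0.0817). Without LRP1 KO 4 it was -0.46 and passed the threshold (limma adjusted p = 0.0132; 0.0132 to 0.864 over all alternatives).

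Of 14 tested inhibitors of the pathway, 3 were higher, 1 was lower and 10 did not pass, with a median of 0.03. Usp18, which strips ISG15 from proteins and blocks signaling at the type I interferon receptor, was at 6.24, 4.77, 4.85 and 4.56 FPKM in the WT libraries against 19.7, 27.7, 32.1 and 29.9 FPKM in LRP1 KO (2.20, SE 0.15, adjusted p = 0.0004). Trim30a rose from 2.996 ± 0.246 to 9.63 ± 1.80 FPKM (1.40, SE 0.12, adjusted p = 0.0005). Ptpn6, the phosphatase SHP-1 of blood cells, named here after its values were seen, had overlapping groups of 0.568 to 1.29 and 1.04 to 2.55 FPKM and a log2 fold change of 0.63 (adjusted p = 0.0493). Its call was lost in 5 of 8 fits without 1 library, and its estimate became -0.12 with the leukocyte covariate. Nlrc3, a negative regulator of STING signaling, fell from 14.7 ± 1.26 to 7.94 ± 1.38 FPKM (-0.82, SE 0.11, adjusted p = 0.0030). Ptpn11 had the highest mean of the list and 0.27 (adjusted p = 0.0712), and passed the threshold without LRP1 KO 4 (0.34, limma adjusted p = 0.0120; 0.0120 to 0.793 over all alternatives).

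At the end of the pathway, 9 of 13 tested interferon-induced output genes were higher and none was lower (limma, 12 and 0 at an unadjusted p under 0.05), with a median of 1.08. Oas3, the median gene itself, was under 1 FPKM in all WT libraries and passed the filter through LRP1 KO alone, and without it the counts were 8 of 12 and the median was 1.12. Among them, Isg15, the ubiquitin-like modifier, was at 22.2 to 31.8 FPKM in the WT libraries against 82.8 to 129 FPKM in LRP1 KO (2.04, SE 0.15), and Ifi44 at 1.97 to 3.23 and 11.2 to 21.7 FPKM (2.28, SE 0.18). Bst2, the tether of enveloped virus particles and the highest of the list, was at 153 to 190 and 272 to 365 FPKM (0.90, SE 0.10). The other 6 were Ifit1, Ifit3, Oas1a, Oas2, Oas3 and Ifi35, from 0.58 for Ifi35 to 2.03 for Oas1a.

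**Figure D4:**
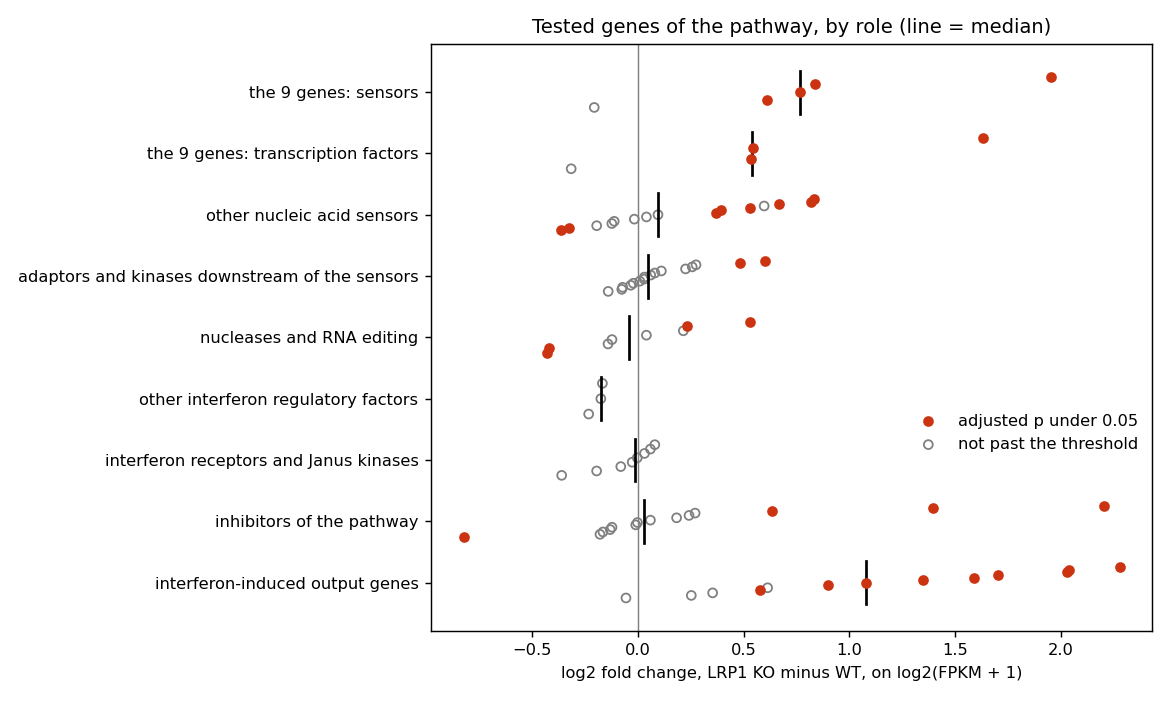
Log2 fold change (LRP1 KO minus WT, log2(FPKM + 1)) of each tested gene of the roles shown, with a vertical line at the median of each role. The other STAT genes are not drawn. Filled points passed a limma adjusted p under 0.05. Filled points to the right lie mainly among the 9 genes, the other sensors and the output genes, whose median was 1.08, and the receptors and Janus kinases have none. The output genes include Oas3, which passed the filter through LRP1 KO alone.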

How the data were processed

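The deposited table holds 1 value per gene and library, which the authors had quantile normalized and which was taken to be FPKM. The unit is inferred from the values and the tools, and how the authors normalized is not given in the sources used here. The submitters' notes name TopHat2, Cufflinks and mm10, without versions. The study's methods describe a count pipeline for its cells, but the table holds no counts, so a count test could not be used. Quantile normalization removes depth and total RNA differences, and no counting error could be computed.

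Groups and replicate numbers came from the sample titles. Values were analysed as log2(FPKM + 1), on which changes of low genes are understated. Genes with at least 1 FPKM in at least 4 libraries were kept (11389 of 22520). limma 3.58.1 in R 4.3.3 was fitted to all 8 libraries with the group as only term and a variance trend. P-values were adjusted over all tested genes by Benjamini-Hochberg, and a gene was called at an adjusted p under 0.05. For members an exact permutation test over all assignments of 4 of the 8 libraries was added (two-sided, smallest possible p 0.0286). The fit was tested on simulated data.

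Positions are from GENCODE M21 (GRCm38) and promoter windows from RefSeq. The members and all gene lists were chosen with earlier results of these data known. Genes named are the 9 members, Lrp1, and from each pathway list the genes that passed the test without overlap between groups and the gene with the highest mean. Output genes are summarised by examples, and exceptions are marked where they occur. Some genes that the rule covers are not reported here. Alternatives were the pseudocount, the filter, rescaled libraries, no variance trend, 3 marker covariates, a replicate block and leaving out each library. No 2 libraries were identical.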

Additional observations from a re-analysis of the deposited data

Results flagged for a closer look

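In 13 of the 94 groups of 4 libraries checked, 1 library lay far from the other 3 by Dixon's criterion, which chance alone meets in about 1 of 20 groups. Among the 9 genes these were Ddx58 at 33.7 FPKM in LRP1 KO 3 (others 26.4 to 27.6), Stat2 at 20.9 FPKM in LRP1 KO 1 (others 28.04 to 29.0) and Zbp1 at 12.5 FPKM in LRP1 KO 1 (others 20.0 to 21.3). In WT 1, Isg15 (31.8 FPKM), Usp18 (6.24 FPKM) and Ifi35 (31.5 FPKM) were the highest of their group and Samhd1 (47.0 FPKM) the lowest. In LRP1 KO 3, Tlr3 (4.05 FPKM) was highest and Irf3 (36.9 FPKM) lowest. In LRP1 KO 4, Nlrc3 (10.0046 FPKM) and Stat3 (74.1 FPKM) were highest. Ifnz in WT 3 (0.454 FPKM) and Ptpn6 in WT 4 (1.29 FPKM) complete the list. What sets these libraries apart was not tested.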

How the results depend on the processing

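The count of 7 of the 9 genes called higher was the same with a pseudocount of 0.1, both other filters, rescaled libraries, no variance trend and the endothelial covariate. It was 0 with the macrophage covariate and 0 with the leukocyte covariate, and so was the count with a 2-fold change. The medians were then 0.87 and 1.14, and the SE over all genes was wider (0.221 and 0.369, against 0.0880). Leaving out 1 library at a time gave 6 to 7 genes higher, 0 to 1 lower, always 2 with a 2-fold change and medians of 0.54 to 0.65. With the replicate block 7 were called higher, and the median was 0.61. Deviations of same-numbered libraries correlated at 0.158, 0.141 and 0.340 for numbers 1 to 3 and at -0.312 for number 4, so that not every pair deviated together and the numbers were not taken to pair them, and the block gave 493 genes higher and 520 lower in the whole table, against 714 and 833. Rescaled libraries gave 825 and 743. Without LRP1 KO 4 there were 1387 and 1572, and without any other single library 223 to 469 and 210 to 520. No estimate of the 9 genes changed sign. Mavs turned to 0.17 with the leukocyte and 0.13 with the macrophage covariate and ran from -0.053 to 0.0044 when 1 library was left out (0.0044 without LRP1 KO 4), and Ptpn6 to -0.12 with the leukocyte covariate. Ifi204 turned to -0.24 with the leukocyte and -0.42 with the macrophage covariate, was called with the endothelial covariate (0.53) and ran from -0.044 (without LRP1 KO 4) to 0.25 when 1 library was left out. Of the other pathway genes named, leaving out 1 library cost a call in 53 gene and library combinations and kept it, or left it missed, in 226, mainly for Xrcc5, Zcchc3, Tlr3, Samhd1, Mnda and Ptpn6. The cause was not tested. The 4 libraries a group, unknown depth and normalization to 1 distribution limit all values.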

Other observations

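Ratios within a library do not depend on a factor that scales the library, and were formed after the values were seen. The ratio of Irf7 to Irf3, the inducible and the constitutive factor below the sensors, was 0.248 to 0.296 in WT and 0.702 to 1.22 in LRP1 KO. The ratio of Irf7 to Irf9 was 0.582 to 0.827 in WT and 1.29 to 1.79 in LRP1 KO. The ratio of Irf9 to Stat2 overlapped between groups, at 0.948 to 1.11 in WT and 0.948 to 1.10 in LRP1 KO.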
